A study of Mus musculus with 12 samples.

Results

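The guanylate-binding proteins (GBPs) and immunity-related GTPases (IRGs) are described here by 10 genes, Gbp2, Gbp3, Gbp5, Gbp7, Irgm1, Irgm2, Igtp, Iigp1, Ifi47 and Tgtp2, among the 55414 genes of the count table. They were chosen by symbol, each symbol matched 1 Ensembl gene ID, and all 10 passed the filter on low counts that left 14310 genes for testing. RNA was sequenced in 12 libraries of macrophages recruited to the calf muscle of C57BL6J wild type mice after hind limb ischemia, 3 libraries each for each of days 1, 2, 4 and 7 after injury (days post injury, dpi). All groups carried the same injury, and an uninjured group was not analysed here. The study describes adult male mice, ligation of the femoral artery, and sorting of CD11b+F4/80+CD64+ cells that stained for CD45 in the digested muscle. Whether a library came from 1 mouse or a pool is not given in the labels. The P values therefore speak only of the spread among these libraries, part of which may be technical.

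GBPs and IRGs are GTPases that cells make in large amounts after exposure to interferons. They settle on the membranes of vacuoles that hold bacteria or parasites, help to break these membranes open, and so expose the microbe to the cytosol. Among the GBPs, Gbp2 is a main coat protein of such vacuoles and Gbp5 has been linked to inflammasome assembly. Among the IRGs, Irgm1, Irgm2 and Igtp are regulators that hold the others inactive on the membranes of the cell itself, and Iigp1, Ifi47 and Tgtp2 are effectors that load on to the vacuole. Transcription of both families is driven through DNA elements that answer to interferons, the gamma-activated site (GAS) and the interferon-stimulated response element (ISRE), the latter bound by interferon regulatory factors.

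Total counts were 19528316 to 33599472 per library, of which 1 gene without a symbol took 14.8% to 55.7%, and 8992759 to 18581365 counts remained without it. Its share differed by day, with 52.9% to 55.7% at 1 dpi, 40.3% to 46.0% at 2 dpi, 45.0% to 49.7% at 4 dpi and 14.8% to 30.1% at 7 dpi. All 8 macrophage markers were tested, and none of them was at 0 in any library. Levels are given as CPM (counts scaled to library size) with TMM factors, and a member's count in a single library lay between 0 (Iigp1 at 1 dpi) and 3480 (Irgm1 at 4 dpi). The TMM factors also differed by day, with 0.652 to 0.725 at 1 dpi, 0.889 to 1.03 at 4 dpi and 1.35 to 1.70 at 7 dpi. A DEG had an FDR below 0.05 in edgeR's quasi-likelihood test and an absolute log2FC above 1.

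The promoters show which of the 2 interferon elements lie near the members' transcript starts. RefSeq windows (GRCm38.p6, spanning 250 bases before to 50 bases after a start) were found for 9 members, and Iigp1 had no entry. The core of the ISRE, searched as GAAANNGAA on both strands, was present in 8 of the 9, against 9.76% of 27025 genes. The GAS motif, searched as TTCNNNGAA, which reads the same on both strands, was present in 5 of the 9, against 9.55% of genes. Both were present in the same 5, against 1.42% of genes. The 2 motifs can share bases, since both hold GAA or TTC. The motifs were chosen after the promoters had been seen, so the comparison with all genes is no test. A match is a description of letters and no evidence of binding. The stretches of 70 bases around the ISRE match nearest to the start are shown because they carry the elements compared, 5′ to 3′ on the strand of the gene, with matches of either motif in capitals.
Gbp2, chr3:142620574-142620643, plus strand: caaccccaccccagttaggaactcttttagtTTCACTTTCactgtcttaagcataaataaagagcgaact
Gbp3, chr3:142559972-142560041, plus strand: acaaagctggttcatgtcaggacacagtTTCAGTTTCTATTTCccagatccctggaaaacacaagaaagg
Gbp5, chr3:142496739-142496808, plus strand: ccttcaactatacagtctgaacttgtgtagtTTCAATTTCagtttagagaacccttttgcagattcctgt
Gbp7, chr3:142530236-142530305, plus strand: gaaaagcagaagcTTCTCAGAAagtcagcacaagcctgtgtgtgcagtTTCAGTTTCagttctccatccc
Irgm1, chr11:48871409-48871478, minus strand: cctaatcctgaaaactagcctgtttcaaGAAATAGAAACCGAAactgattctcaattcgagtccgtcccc
Irgm2, chr11:58214877-58214946, plus strand: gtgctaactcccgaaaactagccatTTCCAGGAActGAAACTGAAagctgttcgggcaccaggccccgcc
Igtp, chr11:58199486-58199555, plus strand: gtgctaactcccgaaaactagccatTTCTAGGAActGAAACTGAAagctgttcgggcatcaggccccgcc
Tgtp2, chr11:49064249-49064318, minus strand: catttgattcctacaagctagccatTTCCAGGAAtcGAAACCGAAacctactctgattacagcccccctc

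In Irgm2, Igtp and Tgtp2 the first run of capitals is the GAS motif and the second is the ISRE core, with 2 bases between them in each. In Gbp7 the same order held with 26 bases between them. The stretches of Irgm2 and Igtp are nearly identical, and that of Tgtp2 shares with Irgm2 the bases just before and through the GAS motif. The shared arrangement of these members therefore does not count as separate cases. The same order stood in 2 further family genes outside the members. These were Tgtp1 (GAS motif at -88 to -80, ISRE core at -77 to -69) and Gm12185 (-86 to -78 and -75 to -67). Gbp3 and Irgm1 each had 2 overlapping ISRE cores and no GAS motif. In Gbp2, Gbp3, Gbp5 and Gbp7 the ISRE core lay on the reverse strand and so reads as TTC runs. The GAS motifs of Gbp5, at -245 and -52 from the start, lay outside the stretch shown. A further GAS motif of Gbp7, at -106, also lay outside its stretch. The second RefSeq window of Gbp3 and the window of Ifi47 held neither motif, which says only that these letters are not in those windows.

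**Figure D1:**
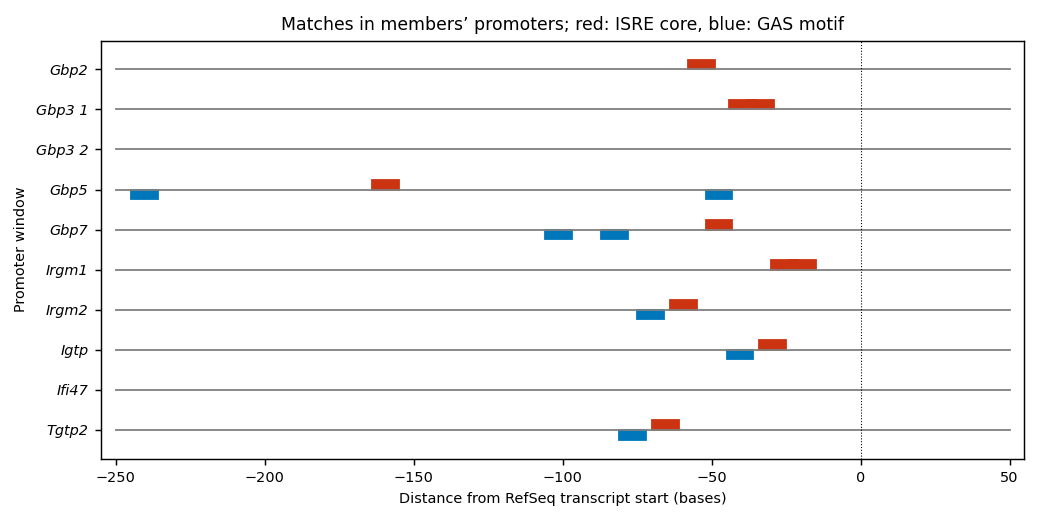
Matches of the ISRE core (red) and the GAS motif (blue) in the RefSeq promoter windows of 9 members, by distance from the transcript start in bases (x-axis), with 2 windows for Gbp3. The GAS motif sits directly before the ISRE core in Irgm2, Igtp and Tgtp2, and the windows of Ifi47 and the second of Gbp3 are empty.

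Over the course, all 10 members varied in the joint test of the 4 time points (FDR below 0.05 in 10 of 10), against 61.5% of all genes tested. They were low at 1 and 2 dpi, high at 4 dpi, and stayed above 1 dpi at 7 dpi. The summed level of the 10 members was 65.1 to 131 CPM at 1 dpi, 58.6 to 77 CPM at 2 dpi, 391 to 523 CPM at 4 dpi and 248 to 326 CPM at 7 dpi. Fewer expressing cells and less RNA per cell cannot be told apart in these bulk libraries.

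Among the GBPs, Gbp2 was at 9.35, 3.94 and 10.5 CPM in the libraries of 1 dpi, 4.39, 2.59 and 3.51 CPM at 2 dpi, 50.1, 69.96 and 81.3 CPM at 4 dpi, and 33.5, 27.9 and 46.4 CPM at 7 dpi. Its 4 dpi libraries lay above all others, and those of 1 and 2 dpi overlapped. Gbp3 was at 4.87, 2.87 and 5.91 CPM at 1 dpi, 3.23, 2.49 and 2.51 CPM at 2 dpi, 27.0, 42.8 and 41.5 CPM at 4 dpi, and 27.8, 27.6 and 36.0 CPM at 7 dpi. Its libraries of 4 and 7 dpi overlapped, and both groups stood clear of the earlier days.

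Gbp5 was at 1.10, 0.821 and 2.35 CPM at 1 dpi, 0.451, 1.14 and 0.788 CPM at 2 dpi, 7.86, 8.08 and 9.48 CPM at 4 dpi, and 7.13, 7.92 and 8.08 CPM at 7 dpi. It rested on 12 to 51 counts per library before 4 dpi and on 182 to 286 from then on. Gbp7, which has been linked to the assembly of the phagocyte oxidase, was at 15.1, 14.6 and 17.4 CPM at 1 dpi, 12.7, 9.76 and 6.34 CPM at 2 dpi, 25.8, 36.4 and 38.9 CPM at 4 dpi, and 60.5, 38.9 and 51.4 CPM at 7 dpi. Each time point of Gbp7 had a range of its own, although those of 4 and 7 dpi nearly touched, and 7 dpi was the highest.

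Among the regulatory IRGs, Irgm1 was at 25.5, 10.5 and 28.1 CPM at 1 dpi, 18.6, 16.7 and 14.4 CPM at 2 dpi, 105, 83.1 and 132 CPM at 4 dpi, and 37.2, 35.0 and 47.0 CPM at 7 dpi. The 3 libraries of 4 dpi were the highest, with those of 7 dpi between them and the early days. Irgm2 was at 13.8, 5.83 and 8.77 CPM at 1 dpi, 6.91, 4.88 and 5.66 CPM at 2 dpi, 33.8, 42.4 and 53.6 CPM at 4 dpi, and 20.6, 23.7 and 27.7 CPM at 7 dpi. Igtp was at 20.04, 9.81 and 19.8 CPM at 1 dpi, 13.9, 9.36 and 10.9 CPM at 2 dpi, 34.1, 35.4 and 38.5 CPM at 4 dpi, and 30.6, 26.5 and 30.6 CPM at 7 dpi. Irgm2 and Igtp overlapped between 1 and 2 dpi and not between any later time points.

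Among the effector IRGs, Iigp1 was at 0, 0.328 and 0.461 CPM at 1 dpi, 1.58, 0.498 and 0.860 CPM at 2 dpi, 11.01, 19.7 and 17.4 CPM at 4 dpi, and 17.9, 17.4 and 13.0 CPM at 7 dpi. It went from at most 10 counts in a library of 1 dpi to 364 or more in every library from 4 dpi on. Ifi47 was at 27.0, 15.8 and 34.0 CPM at 1 dpi, 14.9, 14.8 and 13.0 CPM at 2 dpi, 84.0, 78.1 and 94.3 CPM at 4 dpi, and 41.5, 34.4 and 52.7 CPM at 7 dpi. No 2 time points of Ifi47 overlapped. Tgtp2 was at 2.67, 0.575 and 3.41 CPM at 1 dpi, 0.3005, 0.896 and 0.645 CPM at 2 dpi, 11.7, 16.2 and 16.1 CPM at 4 dpi, and 10.6, 8.87 and 12.7 CPM at 7 dpi. Of the 100-base windows of Tgtp2 transcripts, 76.8% also occur in Tgtp1 or Gm12185, so its counts are uncertain to the extent that the counting split such reads, whereas this share was 10.0% or less in the other 9 members.

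**Figure D2:**
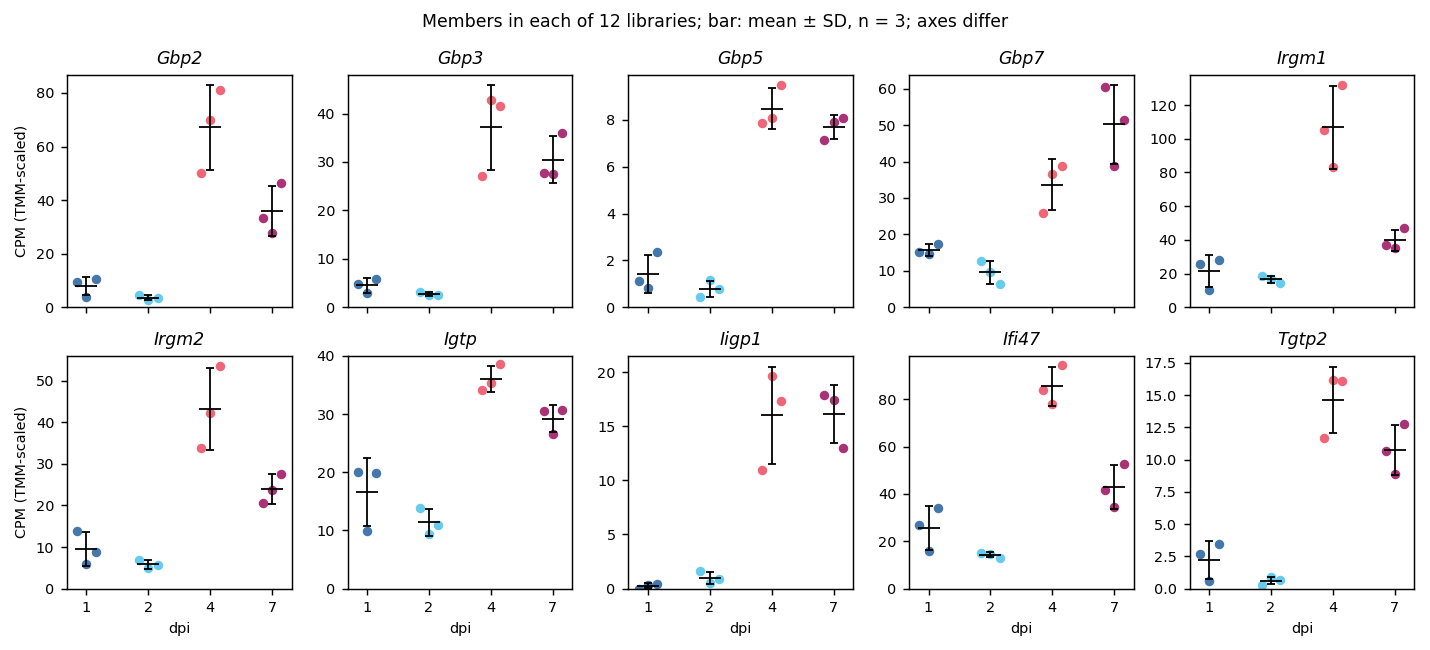
CPM (y-axis, linear from 0, a separate scale for each gene) of the 10 members in 12 libraries, by dpi (x-axis), with points for libraries and bars for the mean ± SD (n = 3). All points of 4 dpi lie above all points of 2 dpi in every panel (22.3% of all genes). Gbp7 alone keeps all points of 7 dpi at or above those of 4 dpi (19.3% of all genes).

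Within a time point, the members tended to rank the libraries alike. At 1 dpi, replicate 2 was the lowest in 9 of 10 members and replicate 3 the highest in 8. At 2 dpi, replicate 1 was the highest in 8 members and replicate 2 the lowest in 5. At 4 dpi, replicate 1 was the lowest in 8 members and replicate 3 the highest in 7, and at 7 dpi replicate 3 was the highest in 8. The members are therefore not independent readings of a time point. Such ranks were not counted over all genes.

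Per exonic length, Ifi47 had the highest level of the members at 4 dpi (34.6 ± 3.33 RPKM, SD, n = 3), followed by Gbp2 (26.7 ± 6.26 RPKM), Irgm1 (18.4 ± 4.22 RPKM) and Igtp (17.8 ± 1.13 RPKM). Irgm1 and Igtp differed by less than their SD. Gbp5 (1.28 ± 0.132 RPKM) and Iigp1 (2.75 ± 0.770 RPKM) were the lowest. At 2 dpi Ifi47 (5.76 ± 0.421 RPKM) and Igtp (5.62 ± 1.14 RPKM) led and differed by less than their SD, and Gbp2 stood at 1.39 ± 0.359 RPKM.

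From 1 to 2 dpi, most members were lower at the later time point, with a negative log2FC in 9 of 10 and a median of -0.71, against 0.01 over all genes tested. Gbp2 (log2FC = -1.16 ± 0.33 SE, FDR = 0.0279) and Tgtp2 (log2FC = -1.85 ± 0.51, FDR = 0.0232) were downregulated, 2 of 10 members against 3.97% of all genes. Iigp1 was upregulated (log2FC = 1.73 ± 0.55, FDR = 0.0488), 1 of 10 against 5.09% of all genes. With FDR alone as the criterion, Ifi47 (log2FC = -0.84 ± 0.24, FDR = 0.0289) joined Gbp2 and Tgtp2, which makes 3 of 10 against 5.60% of all genes. Gbp2 was lost as a DEG without replicate 1 (FDR = 0.0999) or 3 (FDR = 0.15) of 1 dpi or replicate 2 (FDR = 0.124) or 3 (FDR = 0.0918) of 2 dpi, and Tgtp2 without replicate 1 (FDR = 0.0719) or 3 (FDR = 0.16) of 1 dpi or replicate 1 (FDR = 0.106) or 3 (FDR = 0.0725) of 2 dpi. Iigp1 was lost without replicate 1 (FDR = 0.115) or 2 (FDR = 0.105) of 1 dpi, replicate 1 (FDR = 0.233) or 3 (FDR = 0.0829) of 2 dpi, replicate 3 of 4 dpi (FDR = 0.0612) or any replicate of 7 dpi (FDR = 0.0542 to 0.0591).

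From 2 to 4 dpi, all 10 members were upregulated, against 8.02% of all genes tested, and none was downregulated, against 3.88%. Every library of 4 dpi exceeded every library of 2 dpi in all 10, a pattern that 22.3% of all genes showed. The median log2FC was 3.16 (8.94-fold), against 0.04 over all genes. Mitochondrial genes took 4.77% to 5.36% of the counts outside the gene of most counts at 2 dpi and 6.26% to 12.5% at 4 dpi, without overlap, and the part of this shift in the rise was not tested.

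The largest increases were those of the effector Tgtp2 (log2FC = 4.59 ± 0.50 SE, FDR = 1.64e-05), Gbp2 (4.25 ± 0.35, FDR = 2.09e-06) and the effector Iigp1 (4.00 ± 0.42, FDR = 1.27e-05). Gbp3 rose by 3.75 ± 0.28 (FDR = 1.78e-06) and Gbp5 by 3.43 ± 0.39 (FDR = 2.69e-05) on the log2 scale. The regulators Irgm2 (2.89 ± 0.28, FDR = 8.11e-06) and Irgm1 (2.69 ± 0.30, FDR = 2.09e-05) and the effector Ifi47 (2.59 ± 0.25, FDR = 7.36e-06) rose between 6.001-fold and 7.41-fold. The smallest increases were those of Gbp7 (1.81 ± 0.25, FDR = 0.000141) and the regulator Igtp (1.66 ± 0.24, FDR = 0.000225), which still rose 3.50-fold and 3.16-fold. Differences between members were not tested.

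From 4 to 7 dpi, 8 of 10 members had a negative log2FC, with a median of -0.37 against -0.03 over all genes. Irgm1 was downregulated (log2FC = -1.43 ± 0.28 SE, FDR = 0.00282), 1 of 10 members against 5.20% of all genes, and no member was upregulated, against 7.44%. With FDR alone, Ifi47 (log2FC = -0.996 ± 0.24, FDR = 0.00733), Irgm2 (-0.85 ± 0.26, FDR = 0.0268) and Gbp2 (-0.90 ± 0.30, FDR = 0.037) were lower as well, 4 of 10 against 14.6% of all genes. All libraries of 7 dpi lay below those of 4 dpi in 5 members, the 4 named and Igtp (log2FC = -0.30 ± 0.23, FDR = 0.358), against 20.7% of all genes.

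Gbp3 (log2FC = -0.28 ± 0.24, FDR = 0.405), Gbp5 (-0.14 ± 0.33, FDR = 0.79), Iigp1 (0.01 ± 0.35, FDR = 0.986) and Tgtp2 (-0.44 ± 0.40, FDR = 0.425) did not pass the test. Gbp7 was the only member with all libraries of 7 dpi above those of 4 dpi, and its difference (0.58 ± 0.24, FDR = 0.0869) did not pass the test. Ifi47 lay at the fold threshold and became a DEG without replicate 2 of 2 dpi (log2FC = -1.01), replicate 1 (-1.03) or 2 (-1.07) of 4 dpi, or replicate 3 of 7 dpi (-1.17). Gbp2 became a DEG without replicate 1 of 4 dpi (-1.09) or replicate 3 of 7 dpi (-1.13), and Irgm2 without replicate 1 of 4 dpi (-1.02).

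**Figure D3:**
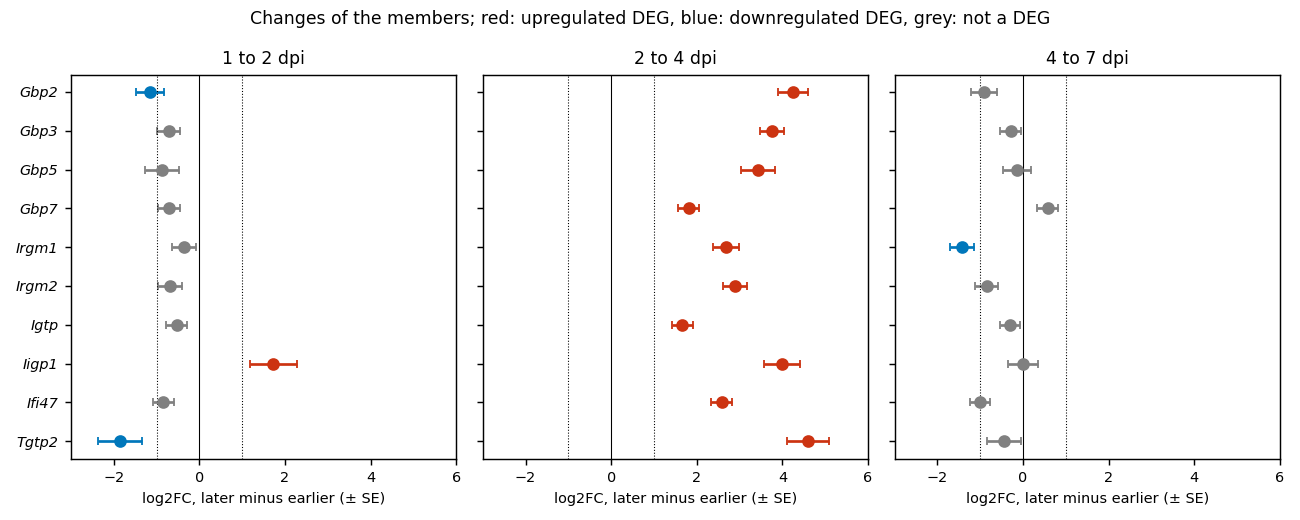
Log2FC, later minus earlier (x-axis, error bars ± SE of the fit to 12 libraries), of the 10 members in the 3 transitions, with dotted lines at the fold threshold of 1. All 10 are red, upregulated DEGs, from 2 to 4 dpi, and Irgm1 alone is blue, a downregulated DEG, from 4 to 7 dpi.

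The opposite signs of Irgm1 and Gbp7 after 4 dpi were followed in a ratio that needs no scaling between libraries, a pair chosen after its values were seen. The ratio of Irgm1 to Gbp7 counts was 1.69, 0.721 and 1.61 at 1 dpi, 1.46, 1.71 and 2.27 at 2 dpi, 4.08, 2.28 and 3.399 at 4 dpi, and 0.614, 0.901 and 0.915 at 7 dpi. It was above 2.27 in every library of 4 dpi and below 1 in every library of 7 dpi. No test was made of this ratio.

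**Figure D4:**
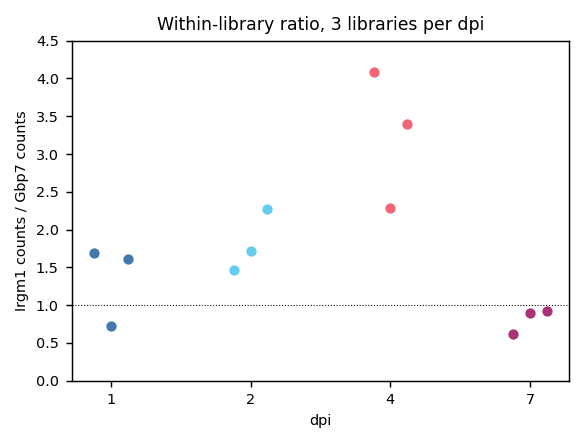
Ratio of Irgm1 to Gbp7 counts within a library (y-axis, linear from 0) by dpi (x-axis), 1 point per library, with a dotted line at 1. The libraries of 4 dpi (2.28 to 4.08) and of 7 dpi (0.614 to 0.915) do not overlap.

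The order of the levels was 2, 1, 7 and 4 dpi from low to high in 8 members. It was 2, 1, 4 and 7 dpi in Gbp7, and 1, 2, 4 and 7 dpi in Iigp1. In Gbp2 and Ifi47 every neighbouring pair in this order differed at an FDR below 0.05. In Gbp3, Gbp5 and Igtp neither 2 and 1 dpi nor 7 and 4 dpi did, and in Gbp7 neither 2 and 1 dpi nor 4 and 7 dpi did. In Irgm1 and Irgm2 2 and 1 dpi did not differ beyond the spread, in Tgtp2 7 and 4 dpi, and in Iigp1 4 and 7 dpi.

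Against 1 dpi, all 10 members were higher at 7 dpi at an FDR below 0.05, against 25.0% of all genes, and 7 of them were DEGs, against 19.7%. Iigp1 had the largest difference (log2FC = 5.74 ± 0.50, FDR = 3.76e-07). Irgm1 (0.90 ± 0.28, FDR = 0.0153), Igtp (0.83 ± 0.24, FDR = 0.0091) and Ifi47 (0.75 ± 0.24, FDR = 0.0159) stayed under the fold threshold. All 10 were DEGs from 1 to 4 dpi (14.7% of all genes) and from 2 to 7 dpi (18.5% of all genes). These comparisons share libraries with the transitions above.

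The rest of the 2 families was covered by 18 further GTPase genes, of which 16 were tested. Gbp10 and Gbp11 had at most 3 counts in any library. From 2 to 4 dpi, 13 of the 16 rose, against 8.02% of all genes, and none fell, with a median log2FC of 2.79. In the first transition (1 to 2 dpi) 1 of the 16 fell, against 3.97% of all genes, and in the last (4 to 7 dpi) 3 rose, against 7.44%.

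Among the GBPs of this list, Gbp9 fell from 1 to 2 dpi (log2FC = -1.20 ± 0.28, FDR = 0.0106) and rose from 2 to 4 dpi (2.58 ± 0.29, FDR = 2.06e-05), although the first call was lost without replicate 1 of 1 dpi (FDR = 0.0632) or without replicate 1 (FDR = 0.0562) or 3 (FDR = 0.0511) of 2 dpi. Gbp4 (5.01 ± 0.85, FDR = 0.000713) and Gbp6 (5.12 ± 0.85, FDR = 0.000612) rose from 2 to 4 dpi from at most 4 counts in a library, and 64.5% of the windows of Gbp6 are shared with other genes. Gbp2b had 0 counts at 2 dpi and was at least 15.9-fold higher at 4 dpi with 2 dpi set to 3 counts in all as the limit that a count of 0 allows. Gbp8 had 0 counts at 1 dpi and was at least 45.5-fold higher at 4 dpi and at least 70.5-fold higher at 7 dpi by the same limit.

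Among the IRGs of this list, Gm5431 (log2FC = 2.73 ± 0.22, FDR = 2.09e-06), Gm12250 (2.84 ± 0.33, FDR = 3.49e-05) and Gm4951 (4.58 ± 0.56, FDR = 4.77e-05) rose from 2 to 4 dpi. Tgtp1, the near copy of Tgtp2, rose by 3.78 ± 1.09 (FDR = 0.0218) on at most 29 counts in a library, a call lost without replicate 2 (FDR = 0.0861) or 3 (FDR = 0.0901) of 2 dpi or replicate 3 of 4 dpi (FDR = 0.106). F830016B08Rik had 0 counts at 2 dpi and was at least 8.54-fold higher at 4 dpi by that limit of 3 counts. Its call from 2 to 4 dpi (FDR = 0.0162) was lost without replicate 1 (FDR = 0.052) or 3 (FDR = 0.0522) of 2 dpi or replicate 3 of 4 dpi (FDR = 0.064).

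The 2 transcripts 9930111J21Rik1 and 9930111J21Rik2, which share 70.5% and 48.3% of their 100-base windows with other genes, rose from 2 to 4 dpi (log2FC = 1.72 ± 0.34, FDR = 0.00241, and 1.40 ± 0.29, FDR = 0.00286). Unlike the members, both rose again from 4 to 7 dpi (2.09 ± 0.32, FDR = 0.000679, and 2.55 ± 0.28, FDR = 0.00014). 9930111J21Rik2 reached 90.5, 49.5 and 46.9 CPM at 7 dpi from 7.32, 13.4 and 11.3 CPM at 4 dpi. F830016B08Rik also rose from 4 to 7 dpi (2.83 ± 0.88, FDR = 0.0296), a call lost without replicate 1 (FDR = 0.0916) or 2 (FDR = 0.0643) of 4 dpi or replicate 2 of 7 dpi (FDR = 0.179). Gvin1, a very large interferon-inducible GTPase, rose from 2 to 4 dpi (1.61 ± 0.30, FDR = 0.00151), with 97.8% of its windows shared with other genes. Irgq (0.61 ± 0.31, FDR = 0.187), Irgc1 (2.45 ± 1.37, FDR = 0.227) and Gm12185 (1.94 ± 1.27, FDR = 0.308) did not pass the test from 2 to 4 dpi.

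Upstream of the members, Ifng, the gene of interferon gamma, had 0 counts in all 12 libraries, which allows up to 0.0511 CPM over the libraries of 1 dpi and 0.0286 CPM over those of 7 dpi. Ifnb1, the gene of interferon beta, had 16 counts over the libraries of 1 dpi, 2 over those of 2 dpi and 0 at 4 and 7 dpi. Such limits cover counting error only. They hold for the sorted macrophages, and interferon made by other cells of the muscle was not measured.

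The receptor genes Ifngr1 (log2FC = 0.996 ± 0.21, FDR = 0.0033, not past the fold threshold) and Ifngr2 (0.35 ± 0.18, FDR = 0.185) were no DEGs from 2 to 4 dpi. Of the transcription factors, Stat2 (1.80 ± 0.26, FDR = 0.000188) and Irf8 (1.29 ± 0.24, FDR = 0.00123) rose, whereas Irf1 (0.81 ± 0.33, FDR = 0.0938) and Irf9 (0.53 ± 0.21, FDR = 0.0901) did not pass the test. Usp18, which dampens signalling at the type I receptor, rose as well (1.78 ± 0.35, FDR = 0.00227). In all, 4 of 17 tested signalling genes rose (8.02% of all genes) and none fell between 2 and 4 dpi, with a median log2FC of 0.43. From 1 to 2 dpi Socs3, a feedback inhibitor of cytokine signalling, fell (-1.46 ± 0.38, FDR = 0.0174), a call lost without replicate 1 of 1 dpi (FDR = 0.0561) or without replicate 1 (FDR = 0.0549), 2 (FDR = 0.0627) or 3 (FDR = 0.066) of 2 dpi. From 4 to 7 dpi Jak2, a kinase of the interferon gamma receptor, rose (1.31 ± 0.24, FDR = 0.00185).

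Targets of interferon outside the GTPases rose in the same interval as the members. Of 23 type I interferon type targets, 19 rose (8.02% of all genes) and none fell between 2 and 4 dpi, with a median log2FC of 1.95. They included Ifit2 (5.08 ± 0.56, FDR = 2.06e-05), Ifit1 (2.74 ± 0.32, FDR = 3.05e-05), both of which bind viral RNA or its translation machinery, Oasl2 (2.28 ± 0.27, FDR = 3.35e-05) and Ifi44 (4.55 ± 0.56, FDR = 5.25e-05). Of 19 tested interferon gamma type targets, 10 rose (8.02% of all genes) and none fell, with a median of 1.08. They included Ciita, the master regulator of MHC class II genes (5.00 ± 0.53, FDR = 1.29e-05), the chemokine gene Cxcl10 (2.79 ± 0.36, FDR = 7.3e-05), the immunoproteasome subunit Psmb9 (1.53 ± 0.20, FDR = 8.92e-05) and the peptide transporter Tap1 (1.49 ± 0.20, FDR = 0.000105). Many interferon targets answer to both types, so the names of these lists do not separate them.

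From 1 to 2 dpi, 5 of 23 type I type targets fell (3.97% of all genes) and 1 rose (5.09%), with a median of -0.79. Siglec1, a sialic acid receptor of macrophages, rose (1.29 ± 0.26, FDR = 0.00373), and Zbp1 (-1.23 ± 0.31, FDR = 0.0155), Oas2 (-1.59 ± 0.41, FDR = 0.0171) and Oas3 (-1.23 ± 0.36, FDR = 0.033) fell. Each of these 3 falls was lost without replicate 3 of 1 dpi (FDR = 0.0886, 0.0939 and 0.169), without replicate 2 of 2 dpi (FDR = 0.0882, 0.0769 and 0.141) and without replicate 3 of 2 dpi (FDR = 0.0607, 0.0708 and 0.091), and that of Oas3 also without replicate 1 of 1 dpi (FDR = 0.0914). Of 19 interferon gamma type targets, 3 fell from 1 to 2 dpi (3.97% of all genes), namely Cd74 (-1.62 ± 0.35, FDR = 0.00593), Cd274 (-1.28 ± 0.29, FDR = 0.00828) and Cxcl10 (-1.16 ± 0.35, FDR = 0.0373). Cd274 was lost without replicate 3 of 1 dpi (FDR = 0.0542), and Cxcl10 without that library (FDR = 0.295), without replicate 2 (FDR = 0.129) or 3 (FDR = 0.144) of 2 dpi or without replicate 3 of 4 dpi (FDR = 0.05).

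From 4 to 7 dpi, when Irgm1 fell, 0 of 23 type I type targets rose as DEGs, against 7.44% of all genes, and 0 fell, against 5.20%. Of 19 interferon gamma type targets, 2 rose, against 7.44% of all genes, and 0 fell. These were Cd74, the invariant chain of MHC class II (2.11 ± 0.36, FDR = 0.00114), and Ciita (1.37 ± 0.41, FDR = 0.0244). A difference between the 2 lists was not tested. The call of Ciita was lost without replicate 1 (FDR = 0.0659) or 3 (FDR = 0.0549) of 4 dpi or without replicate 1 (FDR = 0.0725) or 2 (FDR = 0.0883) of 7 dpi.

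Of 9 inflammasome genes, which act with the GBPs, 2 rose (8.02% of all genes) and 2 fell (3.88% of all genes) from 2 to 4 dpi. Il18 (1.34 ± 0.23, FDR = 0.00084) and the sensor Nlrc4 (1.14 ± 0.29, FDR = 0.0109) rose, and the sensor Nlrp3 (-1.46 ± 0.34, FDR = 0.0071) and Il1b (-1.07 ± 0.29, FDR = 0.0172) fell. Nlrc4 was lost without replicate 1 of 2 dpi (FDR = 0.0671) or replicate 2 (FDR = 0.052) or 3 (FDR = 0.0627) of 4 dpi, and Il1b without replicate 1 (FDR = 0.0574) or 2 (FDR = 0.0616) of 2 dpi or replicate 2 (FDR = 0.0523) or 3 (FDR = 0.0644) of 4 dpi.

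From 1 to 2 dpi the inflammasome genes had a median log2FC of -0.81, and 3 of 9 fell, against 3.97% of all genes. Il1b (-2.47 ± 0.31, FDR = 8.67e-05), Nlrp3 (-1.60 ± 0.34, FDR = 0.00532) and Casp4 (-1.10 ± 0.29, FDR = 0.0206), the caspase that senses cytosolic lipopolysaccharide, fell. Casp4 was lost without replicate 1 (FDR = 0.0535) or 3 (FDR = 0.0686) of 1 dpi or replicate 1 (FDR = 0.0845) or 2 (FDR = 0.0693) of 2 dpi. From 4 to 7 dpi Il1b rose (1.63 ± 0.30, FDR = 0.00174).

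Of 13 genes of ATG8 conjugation and ubiquitin tagging, which guide GBPs and IRGs to vacuoles, 2 rose (8.02% of all genes) and 0 fell from 2 to 4 dpi, with a median of 0.15. These were Trim21, a ubiquitin ligase and antibody receptor (1.70 ± 0.31, FDR = 0.0013), and Map1lc3a (1.28 ± 0.34, FDR = 0.015), which was lost without replicate 2 of 2 dpi (FDR = 0.0638) or replicate 2 of 4 dpi (FDR = 0.116). None of the 13 was a DEG in the other transitions.

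**Figure D5:**
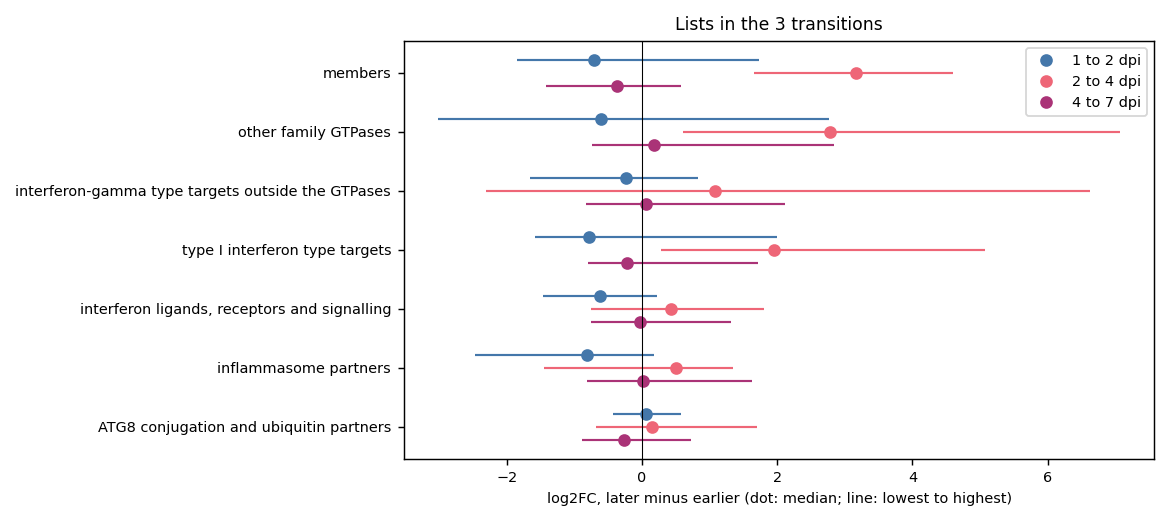
Median log2FC, later minus earlier (x-axis, dots), and the lowest to highest value (lines) of the tested genes of 7 lists in the 3 transitions. From 2 to 4 dpi the medians of the members (3.16) and the other GTPases (2.79) lie furthest to the right, followed by type I type targets (1.95). The median of the ATG8 and ubiquitin genes (0.15) is near 0, with values from -0.68 to 1.70.

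Genes outside the members were ranked by likeness of their course, and the first 10 are named. Likeness was measured as the root mean square (RMS) distance of centred log2 CPM to the mean course of the members over 12 libraries. Among 6684 candidates the median distance was 1.51. The most alike were the IRG Gm5431 (RMS 0.269), Dtx3l (0.318), a ubiquitin ligase, Ifit1 (0.356), Themis2 (0.388), Klhl24 (0.396), Cmpk2 (0.420), the peptidoglycan sensor Nod1 (0.421), the DNA sensor Tlr9 (0.421), Tifab (0.436) and Tspan13 (0.437). The members themselves lay between 0.320 (Gbp3) and 1.63 (Iigp1) from their own mean.

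Markers of other cell types also moved between 2 and 4 dpi, when 8.02% of all genes tested were upregulated and 3.88% downregulated. The 7 fibroblast markers summed to 27.8 to 43.4 CPM at 2 dpi, 133 to 258 CPM at 4 dpi and 418 to 839 CPM at 7 dpi, and 5 of 7 were upregulated from 2 to 4 dpi. The 6 B cell markers summed to 15.8 to 21.6 CPM at 2 dpi and 68.4 to 200.2 CPM at 4 dpi, with 1 of 3 tested upregulated. The 7 dendritic cell markers summed to 2.85 to 4.68 CPM at 2 dpi and 6.75 to 9.04 CPM at 4 dpi, with 2 of 6 tested upregulated. Of 5 tested neutrophil markers, 3 fell and 1 rose in this interval, and their sum was 55.2 to 64.6 CPM at 2 dpi and 63.4 to 82.2 CPM at 4 dpi. The part of these cells in the rise of the members was not tested. From 4 to 7 dpi, when Irgm1 fell, 6 of 7 fibroblast markers, 4 of 6 tested muscle fibre markers (5.02 to 12.3 CPM in sum at 4 dpi and 36.3 to 97.0 CPM at 7 dpi) and 2 of 8 endothelial markers (28.7 to 38.4 CPM and 45.0 to 98.6 CPM) rose, against 7.44% of all genes. The part of these cells in the fall of Irgm1 was not tested.

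The 17 T and NK cell markers, from the cells that are the usual source of interferon gamma, summed to 1.13 to 1.15 CPM at 2 dpi, 1.03 to 1.58 CPM at 4 dpi and 2.80 to 3.43 CPM at 7 dpi. Only 2 of the 17 passed the filter on low counts, and 10 to 12 were at 0 in a library of 4 dpi. The libraries hold sorted macrophages, so these values do not measure T and NK cells in the muscle. Neutrophil markers summed to 131 to 204 CPM at 1 dpi and 55.2 to 64.6 CPM at 2 dpi. Of 5 tested, 4 were downregulated, against 3.97% of all genes, in the interval in which Gbp2 and Tgtp2 fell. The part of neutrophils in that fall was not tested. No endothelial or muscle fibre marker was a DEG from 2 to 4 dpi.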

How the data were processed

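RNA-seq counts of 12 libraries were used, 3 at each of 1, 2, 4 and 7 dpi, grouped by their labels. The deposited values are raw counts per Ensembl gene. Per the labels, the authors used Trim Galore 0.6.6 for trimming, HISAT2 2.2.1 for alignment to GRCm39, and Subread 2.0.1 for counting. The Smart-seq2/3 protocol does not mark the strand, so a gene and an overlapping antisense gene cannot be told apart. In the median library 83.1% of the values from 1 to 20 were even, so mates may have been counted singly and small counts may overstate fragments.

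The tests were run with edgeR 4.0.16 in R 4.3.3 (filterByExpr, TMM, quasi-likelihood F test, 1 coefficient per time point, all 12 libraries, Benjamini-Hochberg adjustment within a comparison), with limma 3.58.1 and DESeq2 1.42.0 as alternatives. The script was tested on simulated data. Ensembl IDs were matched to symbols and exonic lengths in GENCODE vM21 (GRCm38), and promoters were those of RefSeq on GRCm38.p6. Log2 CPM used a prior count of 2. Intervals and floors cover counting error only.

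The members and lists were chosen with earlier results of these data known. Named were all members, all other family GTPases that were measured, a fixed set of signalling genes, of every other list up to 4 DEGs of smallest P per transition, and the 10 genes of at least 3 mean log2 CPM nearest to the members' mean course. A gene that this rule names is not reported here. The motifs were chosen after the promoters had been seen, and a longer ISRE core was tried and set aside.

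The labels do not say whether replicate numbers pair the libraries across time points, and no pairing was used in the main tests. Deviations of same-numbered libraries correlated within the range of other pairs. With 3 libraries per time point, this cannot exclude a weak pairing.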

Additional observations from a re-analysis of the deposited data

How the results depend on the processing

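The count of 10 upregulated members from 2 to 4 dpi was the same under all 23 alternatives (RLE factors, no filter, CPM above 1 in 3 libraries, DESeq2, limma-voom, the 6 libraries compared, the replicate block, the gene of most counts left out, halved counts, FDR alone, Tgtp1 and Tgtp2 summed, and each of 12 libraries left out). The joint test over the course gave 10 members under each of the 18 alternatives in which it was run. The 3 DEGs from 1 to 2 dpi became 0 with limma-voom, where 3 members had an unadjusted P under 0.05, 1 with the 6 libraries compared, 2 with RLE factors, CPM above 1 in 3 libraries or halved counts, each of which lost Iigp1 (FDR = 0.0569, 0.0531 and 0.0745), 3 with DESeq2, and 0 to 3 with a library left out. The 1 DEG from 4 to 7 dpi became 2 without the filter and with limma-voom, 4 with FDR alone, and 1 to 4 with a library left out, and the gain was Ifi47 in the first 2 settings. The counts of 10 (1 to 4 dpi), 7 (1 to 7 dpi) and 10 (2 to 7 dpi) ranged over 9 to 10, 7 to 10 and 10 to 10 with a library left out. The log2FC of Iigp1 from 4 to 7 dpi, 0.01 and not called, turned to -0.0055 without the filter and ranged from -0.22 to 0.17 with a library left out, negative in 4 of these fits (-0.22, -0.074, -0.034 and -0.0094). The cause was not tested. Levels of members moved by less than 1 SD with a prior count of 0.5 and with RLE factors.

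Pairing was checked because replicate numbers recur at each time point. Deviations of same-numbered libraries correlated at -0.133 to 0.127 over 18 pairs, and those of other pairs at -0.221 to 0.265 over 36. With the replicate block, the first transition gave 2 member DEGs, the second 10 and the last 2.

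Depth limits Iigp1, Gbp5 and Tgtp2 at 1 and 2 dpi, where they had at most 74 counts in a library.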
